A study of Homo sapiens with 18 samples.

Results

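RPPH1 and RMRP are short noncoding RNAs made by RNA polymerase III (Pol III), and they were measured here in 2 human lymphoma cell lines given a histone demethylase inhibitor. The set of interest was a list of 4 gene symbols, RPPH1, RMRP, RN7SK and RN7SL1, taken as the rows with those symbols in the tables of counts and of transcripts per 1000000 (TPM). RPPH1 and RMRP each had 1 row in the tables of both lines, so 2 of the 4 listed genes, among 23686 symbols in all, could be described. RN7SK and RN7SL1 had no row under their symbol or a RefSeq synonym in the tables used here and were not analysed here. The list was selected on the same counts and TPM values that are given below, with earlier results of these data known, so the levels of RPPH1 and RMRP and their differences between doses are a description without a test.

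RNA polymerase III makes transfer RNAs, 5S ribosomal RNA and a small group of structured RNAs that work inside protein complexes. RPPH1 is the RNA part of ribonuclease P (RNase P), the enzyme that trims the 5′ end of precursor transfer RNAs, and RMRP is the RNA part of the related RNase MRP, which cuts precursor ribosomal RNA. RN7SK holds the elongation kinase P-TEFb inactive together with the protein HEXIM1, and RN7SL1 is the RNA of the signal recognition particle (SRP), which brings growing secretory proteins to the endoplasmic reticulum. The promoters of RPPH1 and RMRP lie upstream of the transcribed part and hold a TATA box, which in this class of gene directs Pol III, beside upstream elements bound by the SNAPc complex and by octamer factors.

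Total RNA was sequenced from OCI-Ly1 and TMD8, established lines of human diffuse large B-cell lymphoma. The medium was IMDM for OCI-Ly1 and RPMI 1640 for TMD8, each with 10% fetal bovine serum and antibiotics, so line and medium changed together. JIB-04 is an inhibitor of JmjC-domain histone demethylases. Each line had 3 libraries per group, and the groups were the 0.01% DMSO vehicle and JIB-04 at 150 nM and at 500 nM. The labels give no treatment time. After column purification and removal of ribosomal RNA, the 3 libraries of a group were prepared as technical triplicates. Nothing in the labels says whether they came from separate cultures, so every adjusted p-value below measures the spread between these libraries, which may be technical.

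An OCI-Ly1 library held between 17579732 and 32651115 estimated counts, and a TMD8 library between 9550092 and 20509500. All 6 B-cell markers checked were present, with mean levels between 60.0 and 456 CPM (counts per 1000000) in OCI-Ly1 and between 85.7 and 1236 CPM in TMD8. The 6 T-cell and myeloid markers summed to 9.55 to 22.8 CPM over the OCI-Ly1 libraries and to 2.34 to 5.25 CPM over the TMD8 libraries. MPO was at 0 in every OCI-Ly1 library and CD3E at 0 in every TMD8 library. At 500 nM 2 of the 4 of these markers tested in OCI-Ly1 fell and 1 of the 2 tested in TMD8 rose. Of the 6 B-cell markers, 2 rose and 3 fell in OCI-Ly1, and 1 rose and 4 fell in TMD8. Over all tested genes, 27.7% rose and 25.9% fell in OCI-Ly1, and 29.9% rose and 30.7% fell in TMD8. The part of either set of markers in the values of RPPH1 and RMRP was not tested.

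The RNAs that the counts belong to are shown here, because neither molecule is translated and the sequence is the product. They are read from GENCODE v29 transcripts RPPH1-201, bases 1 to 300 of 333, and RMRP-201, all 268 bases. Capitals mark the longest run of letters that the 2 RNAs share.
RPPH1: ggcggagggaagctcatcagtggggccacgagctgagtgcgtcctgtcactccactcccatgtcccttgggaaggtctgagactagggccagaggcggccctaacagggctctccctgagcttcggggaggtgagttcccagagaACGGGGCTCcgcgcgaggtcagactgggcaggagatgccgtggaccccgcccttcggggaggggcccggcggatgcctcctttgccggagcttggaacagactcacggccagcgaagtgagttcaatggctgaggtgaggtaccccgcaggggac
RMRP: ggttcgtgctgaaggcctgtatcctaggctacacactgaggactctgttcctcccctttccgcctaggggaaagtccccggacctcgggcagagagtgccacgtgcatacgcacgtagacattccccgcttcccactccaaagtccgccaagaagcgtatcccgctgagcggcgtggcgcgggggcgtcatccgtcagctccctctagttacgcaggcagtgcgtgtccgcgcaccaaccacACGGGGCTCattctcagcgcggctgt

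The shared run was 9 bases long, at bases 146 to 154 of RPPH1 and bases 243 to 251 of RMRP, so no stretch of 31 bases was common to both. Both were rich in G and C, at 64.6% of bases in RPPH1 and 63.1% in RMRP. Of the 238 stretches of 31 bases in RMRP, 0 were found in a GENCODE v29 transcript of another gene name. GENCODE v29 lists a long noncoding RNA gene and a ribozyme gene that are both named RMRP. Transcripts under the same gene name were left out of the search, so overlap between those entries was not examined. All 303 stretches of 31 bases in RPPH1 were also present in a transcript named AL355075.4, so in an index that held both, reads could be split between them. The index behind the deposited tables was not searched, and whether RPPH1 shares reads there was not tested.

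Each gene lies head to head with a protein-coding gene on the opposite strand, RPPH1 on chromosome 14 with PARP2, a DNA-repair enzyme, and RMRP on chromosome 9 with CCDC107. The RefSeq promoter window of each neighbour (GRCh38.p14, plus strand) is therefore read from the neighbour's side. The window of PARP2 holds the first 27 bases of the RefSeq RPPH1 gene and the bases upstream of them, while that of CCDC107 begins 23 bases upstream of the RefSeq RMRP gene and holds none of it. The windows are chr14:20343385-20343684 for RPPH1 and PARP2 and chr9:35658042-35658341 for RMRP and CCDC107. Capitals mark matches on either strand to the octamer ATGCAAAT and to the TATA letters TATAA.
RPPH1-PARP2: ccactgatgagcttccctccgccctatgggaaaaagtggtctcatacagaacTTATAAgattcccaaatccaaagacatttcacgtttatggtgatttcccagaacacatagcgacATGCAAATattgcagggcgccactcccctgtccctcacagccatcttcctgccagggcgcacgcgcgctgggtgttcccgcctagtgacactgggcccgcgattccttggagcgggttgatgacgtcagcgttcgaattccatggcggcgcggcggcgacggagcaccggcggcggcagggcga
RMRP-CCDC107: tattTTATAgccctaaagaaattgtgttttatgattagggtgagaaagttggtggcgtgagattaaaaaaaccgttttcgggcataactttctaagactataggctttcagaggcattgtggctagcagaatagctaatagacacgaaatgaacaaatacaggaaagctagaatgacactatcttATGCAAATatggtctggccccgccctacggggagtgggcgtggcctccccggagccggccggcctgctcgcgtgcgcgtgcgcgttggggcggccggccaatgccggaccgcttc

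Counted from the RefSeq gene starts, the TATA letters lay 26 to 31 bases upstream of RPPH1, where matches on the 2 strands overlap, and 27 to 31 bases upstream of RMRP. The octamer lay 90 to 97 bases upstream of RPPH1 and 208 to 215 bases upstream of RMRP. The GENCODE RNAs printed above start inside the RefSeq genes, RPPH1 by 4 bases and RMRP by 1 base, so from those starts the TATA letters lay 30 to 35 and 28 to 32 bases upstream. Among 35116 RefSeq promoter windows of the same length, searched on both strands, 1.77% held the octamer, 20.4% held TATAA and 0.575% held both. The matches describe letters in these windows and not sites bound in these cells.

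RPPH1 was among the most abundant symbols of every library. It ranked first by counts in 8 of the 9 OCI-Ly1 libraries and between rank 1 and rank 5 in TMD8. RMRP held rank 3 or 4 by counts in OCI-Ly1 and between rank 1 and rank 5 in TMD8. RPPH1 and RMRP together took 1.33% to 2.15% of the counts of an OCI-Ly1 library and 1.49% to 3.17% of the counts of a TMD8 library. Because both RNAs are short, their share of TPM, which divides counts by length, was larger, between 11.7% and 17.8% in OCI-Ly1 and between 7.82% and 12.0% in TMD8.

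In OCI-Ly1, RPPH1 took a larger share of counts at 500 nM than with DMSO, while 150 nM differed little from DMSO. The 3 DMSO libraries gave 1.12%, 1.03% and 0.972% of counts. At 150 nM the shares were 0.997%, 1.08% and 0.868%, and at 500 nM they were 1.51%, 1.34% and 1.41%. All 3 libraries at 500 nM lay above the other 6, and the DMSO and 150 nM libraries overlapped. After scaling by trimmed mean of M-values (TMM), RPPH1 stood at 10631 ± 699.5 CPM with DMSO (SD, n = 3), 9969 ± 1014 CPM at 150 nM and 13676 ± 903 CPM at 500 nM. The fitted log2 difference from DMSO was −0.09 (SE 0.06) at 150 nM and 0.36 (SE 0.06) at 500 nM, and 500 nM stood 0.46 (SE 0.06) above 150 nM.

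In TMD8, the share of RPPH1 was higher at each dose. It took 0.751%, 0.888% and 0.870% of counts in the DMSO libraries. At 150 nM it took 1.16%, 1.21% and 1.14%, and at 500 nM 1.53%, 1.44% and 1.60%. The 3 groups did not overlap, and their order followed the dose. The TMM levels were 8710 ± 620 CPM with DMSO, 11497 ± 418 CPM at 150 nM and 14890 ± 758 CPM at 500 nM (SD, n = 3 each). Fitted log2 differences from DMSO were 0.40 (SE 0.07) and 0.77 (SE 0.07), and 500 nM stood 0.37 (SE 0.07) above 150 nM.

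By counts, RMRP differed little between the doses in OCI-Ly1. Its shares of counts were 0.512%, 0.540% and 0.506% in the vehicle group, 0.518%, 0.543% and 0.463% at 150 nM, and 0.642%, 0.551% and 0.539% at 500 nM. The 3 groups overlapped, with the first 500 nM library above the rest. The TMM levels were 5309 ± 226 CPM, 5164 ± 385 CPM and 5559 ± 602 CPM (SD, n = 3 each). The fitted log2 difference from DMSO was −0.04 (SE 0.06) at 150 nM and 0.07 (SE 0.06) at 500 nM. Without the first 500 nM library the latter was −0.03. By TPM the groups were set apart differently, as given below, and the mean of RMRP at 500 nM was 1.14 times that with DMSO.

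In TMD8, RMRP was higher at both doses. Its shares of counts were 0.743%, 0.754% and 0.788% in the vehicle group, 1.12%, 1.21% and 1.37% at 150 nM, and 1.64%, 1.49% and 1.55% at 500 nM. No library of one dose overlapped with another dose, and every treated library lay above every DMSO library. The TMM levels were 7943 ± 177 CPM with DMSO, 12097 ± 1102 CPM at 150 nM and 15247 ± 692 CPM at 500 nM (SD, n = 3 each). Fitted log2 differences were 0.61 (SE 0.07) and 0.94 (SE 0.07) from DMSO, and 0.33 (SE 0.07) between the doses.

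**Figure D1:**
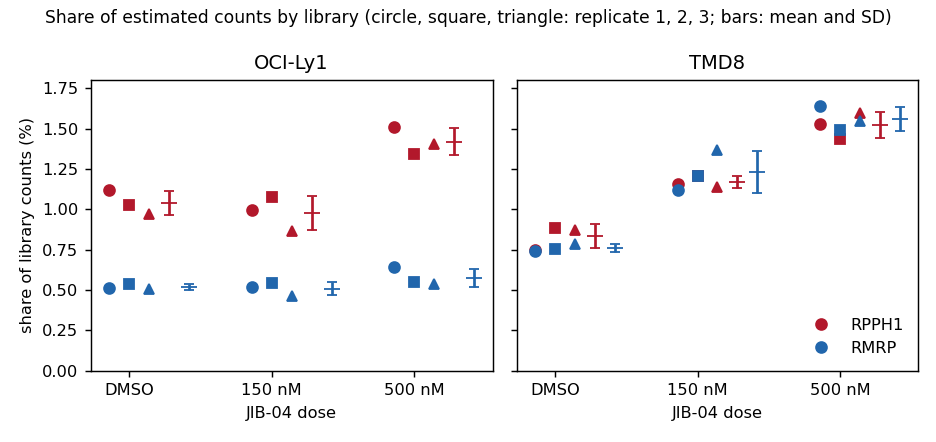
Share of library counts (%, y axis) taken by RPPH1 (red) and RMRP (blue) in each library, by JIB-04 dose (x axis) and cell line; circle, square and triangle are replicates 1, 2 and 3, and the bars beside them give the mean and SD. RPPH1 in OCI-Ly1 is near 1.04% with DMSO and 1.42% at 500 nM, RMRP there stays between 0.463% and 0.642%, and both are higher at each dose in TMD8.

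These counts of non-overlapping groups are read against all tested genes. In OCI-Ly1, 0 of the 2 RNAs had groups apart at 150 nM against DMSO, a comparison in which 14% of all tested genes did. At 500 nM against DMSO it was RPPH1 alone, 1 of 2, beside 60.7% of all genes, and at 500 nM against 150 nM again RPPH1 alone, beside 55.6%. In TMD8 both RNAs had groups apart in all 3 comparisons, beside 51.4% of all genes at 150 nM against DMSO, 66.4% at 500 nM against DMSO and 44.8% between the doses. With shares this common among all genes, and with members chosen on the same values, nothing is read from these counts. The 3 comparisons within a line share libraries. In bulk RNA, a change in the number of cells of a kind and a change in RNA per cell cannot be told apart.

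The depth behind these shares was large. The lowest count was 126024 for RPPH1 and 89292 for RMRP. In the smallest library, replicate 3 of TMD8 at 500 nM, the RPPH1 share of 1.60% had a 95% Wilson interval from 1.59% to 1.61%. Without molecular identifiers such an interval covers no more than counting error, and the spread between replicates was wider.

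Ordered by mean share of counts, RPPH1 was highest in TMD8 at 500 nM (1.52% ± 0.0804, SD, n = 3 here and below) and next in OCI-Ly1 at 500 nM (1.42% ± 0.0830). The libraries of these 2 groups overlapped. TMD8 at 150 nM followed with 1.17% ± 0.0352, apart from the groups on either side. The lowest 3 groups were OCI-Ly1 with DMSO at 1.04% ± 0.0747, OCI-Ly1 at 150 nM at 0.980% ± 0.105 and TMD8 with DMSO at 0.836% ± 0.0747, and neighbours among them overlapped. RPPH1 therefore did not sort by line on this scale.

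By share of counts, RMRP did sort by line. Its 3 highest groups were those of TMD8, at 1.56% ± 0.0746 with 500 nM, 1.23% ± 0.128 with 150 nM and 0.762% ± 0.0232 with DMSO (SD, n = 3 each), all apart from one another. Below them came OCI-Ly1 at 500 nM with 0.577% ± 0.0567, with DMSO at 0.519% ± 0.0182 and at 150 nM with 0.508% ± 0.0409. Neighbours among these 3 groups overlapped, while the lowest TMD8 library, at 0.743%, lay above the highest OCI-Ly1 library, at 0.642%. By share of TPM it was RPPH1 that sorted by line, with 6.33% to 10.6% in OCI-Ly1 and 3.22% to 4.81% in TMD8. RMRP overlapped there, with 5.37% to 7.19% in OCI-Ly1 and 4.58% to 7.30% in TMD8.

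On the TPM scale, which allows the 2 RNAs to be compared per length, RPPH1 was the most abundant symbol of every OCI-Ly1 library and RMRP the next. In TMD8, RMRP held rank 4 or 5 and RPPH1 rank 6 or 7. RPPH1 took 7.63%, 7.05% and 6.88% of the TPM of the OCI-Ly1 DMSO libraries. It took 6.91%, 7.44% and 6.33% at 150 nM and 10.6%, 9.70% and 10.1% at 500 nM, which again set the 500 nM libraries apart from the other 6. The RMRP share of TPM in OCI-Ly1 was 5.56%, 5.91% and 5.71% in the vehicle group, 5.69%, 5.88% and 5.37% at 150 nM, and 7.19%, 6.26% and 6.13% at 500 nM. By TPM the 500 nM libraries of RMRP did not overlap with the others, unlike by counts.

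In TMD8 the TPM shares moved less than the count shares. RPPH1 took 3.26%, 3.42% and 3.22% in the vehicle group, 3.99%, 3.89% and 3.86% at 150 nM, and 4.11%, 4.18% and 4.81% at 500 nM. RMRP took 5.05%, 4.58% and 4.60% in the vehicle group, 5.99%, 6.04% and 7.30% at 150 nM, and 6.86%, 6.80% and 7.23% at 500 nM. For RPPH1 the 3 groups were apart, and for RMRP the third 150 nM library lay above all 3 libraries at 500 nM.

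**Figure D2:**
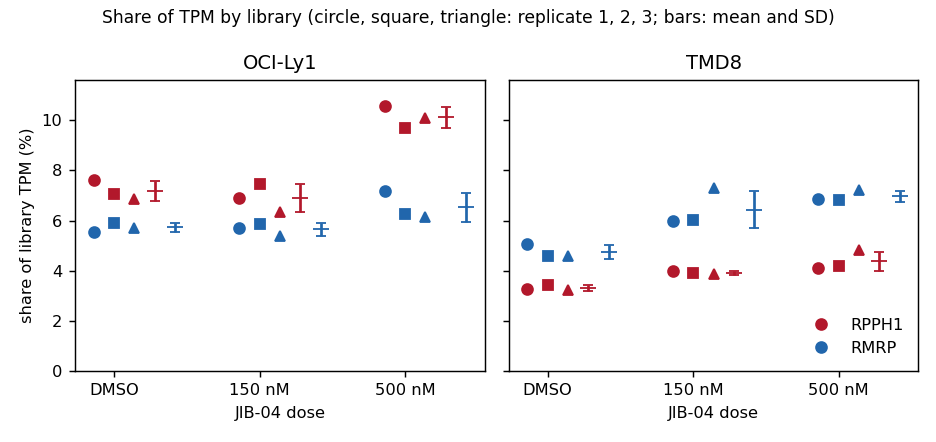
Share of library TPM (%, y axis) taken by RPPH1 (red) and RMRP (blue) in each library, by JIB-04 dose (x axis) and cell line; circle, square and triangle are replicates 1, 2 and 3, and the bars give the mean and SD. RPPH1 lies above RMRP in every OCI-Ly1 library and below it in every TMD8 library.

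A few noncoding loci that resemble the spacer of the ribosomal DNA repeat, MIR3648, MIR3687, MIR663A, MIR663B, MIR4461, LOC284801 and LINC00273, took much of the TPM total in TMD8, and this moved with dose. Their share of TPM was 44.7% to 53.4% with DMSO, 54.0% to 57.5% at 150 nM and 58.5% to 62.7% at 500 nM, against 0.989% to 5.38% over the OCI-Ly1 libraries. Since TPM sums to a fixed total, every other gene in TMD8 shares what is left. RPPH1 at 500 nM against DMSO in TMD8 differed by 0.40 on the log2(TPM + 1) scale, and by 0.74 with those loci left out of the total, beside 0.77 by TMM-scaled counts. For RMRP the same 3 values were 0.55, 0.90 and 0.94. At 150 nM in TMD8, RPPH1 differed by 0.25 on the log2(TPM + 1) scale and by 0.40 with the loci left out. In OCI-Ly1, where the loci are a small share, RPPH1 at 500 nM differed by 0.49 on the log2(TPM + 1) scale and by 0.55 with the loci left out, beside 0.36 by TMM-scaled counts. The choice to leave out these loci was made after seeing the data.

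**Figure D3:**
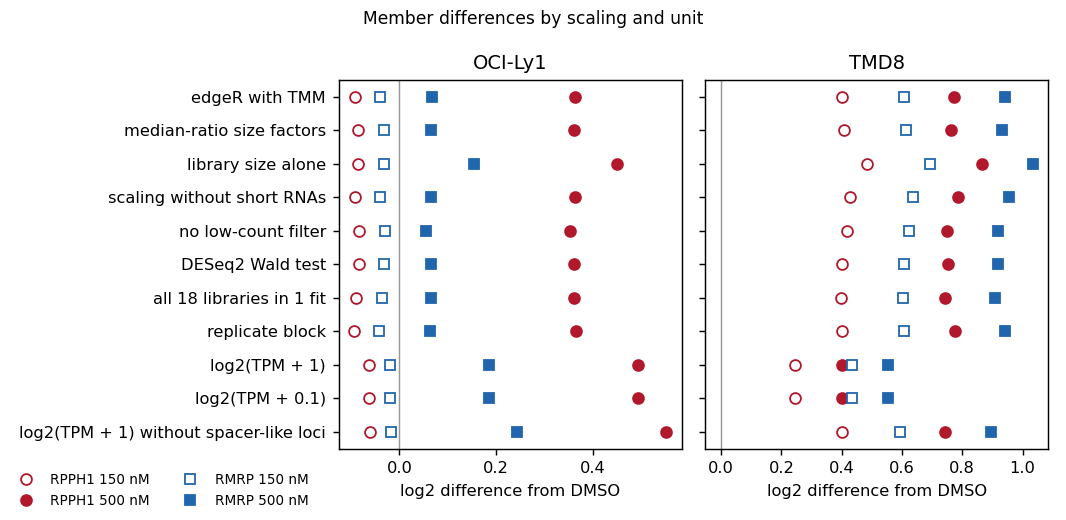
Log2 difference from DMSO (x axis) of RPPH1 (red circles) and RMRP (blue squares) at 150 nM (open) and 500 nM (filled) in each line, under 11 ways of scaling or testing (y axis). All 4 differences in TMD8 lie above 0 under each of them, and log2(TPM + 1) gives the smallest values there until the spacer-like loci are left out of the total.

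The ratio of RPPH1 to RMRP counts is taken within a library, so scaling between libraries does not enter it. In OCI-Ly1 it was 2.19, 1.90 and 1.92 in the vehicle group, 1.93, 1.98 and 1.87 at 150 nM, and 2.35, 2.44 and 2.61 at 500 nM. The 500 nM libraries lay above the other 6. In TMD8 the ratio was 1.01, 1.18 and 1.10 in the vehicle group, 1.04, 1.001 and 0.832 at 150 nM, and 0.933, 0.964 and 1.03 at 500 nM, and the groups overlapped. Every OCI-Ly1 library had a higher ratio than every TMD8 library. Per length, the TPM ratio of RPPH1 to RMRP was between 1.18 and 1.64 in OCI-Ly1 and between 0.529 and 0.746 in TMD8, so RPPH1 was the more abundant RNA in OCI-Ly1 and RMRP in TMD8. The effective length of RPPH1 that the tables imply was 1.55 to 1.60 times that of RMRP in all 18 libraries.

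**Figure D4:**
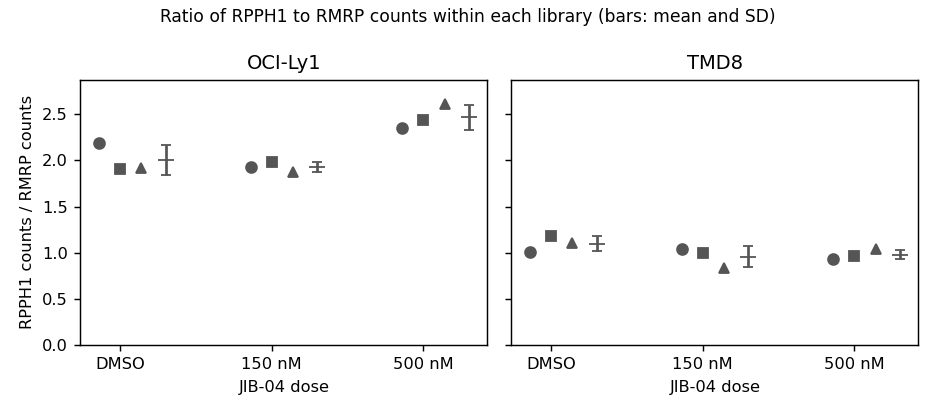
RPPH1 counts divided by RMRP counts (y axis) in each library, by JIB-04 dose (x axis) and cell line; circle, square and triangle are replicates 1, 2 and 3, and the bars give the mean and SD. The 9 OCI-Ly1 libraries run from 1.87 to 2.61 and the 9 TMD8 libraries from 0.832 to 1.18.

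Fitted over all 18 libraries, the response of RPPH1 to 500 nM was 0.38 (SE 0.10) smaller on the log2 scale in OCI-Ly1 (0.36) than in TMD8 (0.74). At 150 nM the same pair of responses was −0.09 and 0.40. For RMRP the responses to 500 nM were 0.06 in OCI-Ly1 and 0.91 in TMD8, and those to 150 nM were −0.04 and 0.60. The gap between the lines was thus wider for RMRP than for RPPH1 in these fits, as a description. These fits use TMM-scaled counts, and by TPM the order of the lines for RPPH1 at 500 nM was the other way. There the mean TPM at 500 nM was 1.41 times that with DMSO in OCI-Ly1 and 1.32 times in TMD8. With the spacer-like loci left out of the total, these ratios were 1.46 and 1.67. For RMRP the ratios of mean TPM were 1.14 and 1.47.

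Genes with the pattern nearest to each RNA were sought among 9948 genes with a mean of at least 5 CPM in both lines, over the 18 libraries, by the root-mean-square difference in log2 level after centring on the DMSO mean of each line. Nearest to RPPH1 were GALNT2 (0.0733), EZH1 (0.0969) and MPPE1 (0.0981). Nearest to RMRP were ZFP36L2 (0.0970), BCL2 (0.0976) and PARP10 (0.116). RMRP itself was rank 316 among the genes nearest to RPPH1, with a difference of 0.185. All of these values share the libraries and their scaling.

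The protein-coding neighbours that start beside the 2 RNAs were tested with edgeR's quasi-likelihood test and Benjamini-Hochberg adjustment over all genes. PARP2, head to head with RPPH1, fell in TMD8 at 500 nM, from 47.0 ± 2.10 to 37.0 ± 1.58 CPM (SD, n = 3; log2 −0.35, edgeR adjusted p = 1.4e-04). At 150 nM in TMD8 it fell by 0.16 on the log2 scale (edgeR adjusted p = 0.043), a call that was lost when DMSO replicate 1 or 2 or 150 nM replicate 2 or 3 was left out, with an edgeR adjusted p of 0.10, 0.069, 0.17 and 0.20. In OCI-Ly1 the PARP2 difference at 500 nM was 0.09 (edgeR adjusted p = 0.23). RPPH1 and PARP2 therefore differed from DMSO in opposite directions in TMD8.

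CCDC107, head to head with RMRP, rose at 500 nM in OCI-Ly1 (log2 0.45, edgeR adjusted p = 0.018) and in TMD8 (log2 0.34, edgeR adjusted p = 0.0097). Its level in OCI-Ly1 was 5.93 ± 1.10 CPM with DMSO against 8.15 ± 0.906 CPM at 500 nM, and in TMD8 10.7 ± 0.899 against 13.5 ± 1.18 CPM (SD, n = 3 each). Leaving out DMSO replicate 2 or 500 nM replicate 1 ended the OCI-Ly1 call (adjusted p = 0.084 and 0.090), and leaving out DMSO replicate 3 ended the TMD8 call (adjusted p = 0.059), as did DESeq2. On the log2(TPM + 1) scale the TMD8 difference was −0.06. On the far side of each RNA, CCNB1IP1 beside RPPH1 rose in OCI-Ly1 at 500 nM (log2 0.65) and fell in TMD8 (log2 −0.52), and SIT1 beside RMRP fell in both (log2 −0.35 and −0.38).

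The proteins that make Pol III transcripts were taken as 18 subunits of the enzyme and 19 initiation factors and regulators, all 37 of which passed the filter on low counts. Some of these subunits, such as POLR1C and POLR2E, also belong to RNA polymerase I or II, so the list is not particular to Pol III. In OCI-Ly1 at 150 nM edgeR called 0 of them, where 0.748% of all tested genes were called higher and 0.141% lower, and at an unadjusted p under 0.05 the count was also 0. DESeq2 and limma called 0 as well. In OCI-Ly1 at 500 nM 8 rose and 14 fell, with 27.7% of all genes called higher and 25.9% lower. That split depended on the scaling: with library size alone 11 rose and 9 fell, and on log2(TPM + 1) 11 rose and 6 fell. It also moved with 1 library, since without DMSO replicate 2 the split was 7 against 9.

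In TMD8 the 37 were mainly lower. At 150 nM 1 rose and 25 fell, beside 19.2% of all genes called higher and 25% lower, and at 500 nM 1 rose and 25 fell, beside 29.9% and 30.7%. The median log2 difference of the 18 subunits in TMD8 was −0.32 at 150 nM and −0.60 at 500 nM, against 0.01 and 0.04 over all tested genes. RPPH1 and RMRP stood higher than with DMSO in the same libraries.

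POLR3G, a subunit whose place in the enzyme can also be taken by POLR3GL, fell in both lines. It stood at 35.8 ± 1.89 CPM with DMSO and 21.6 ± 1.11 CPM at 500 nM in OCI-Ly1 (log2 −0.73, edgeR adjusted p = 6.1e-06). In TMD8 the levels were 39.8 ± 2.70 and 17.3 ± 1.45 CPM (log2 −1.21, edgeR adjusted p = 9.4e-10). POLR3GL differed by −0.14 in OCI-Ly1 and 0.28 in TMD8 on the log2 scale, neither past the threshold. POLR3C, another subunit, rose in OCI-Ly1 (log2 0.52) and differed by −0.09 in TMD8.

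SNAPC4, the largest subunit of the SNAPc complex that binds promoters of the RPPH1 and RMRP type, fell in TMD8 from 125.9 ± 4.79 CPM with DMSO to 64.6 ± 2.47 CPM at 500 nM (log2 −0.97, edgeR adjusted p = 8.0e-11). In OCI-Ly1 its difference was 0.11 (edgeR adjusted p = 0.23). POU2F1, an octamer-binding factor, fell in OCI-Ly1 at 500 nM (log2 −0.67) and differed by −0.02 in TMD8. BRF2, the initiation factor particular to promoters with a TATA box, differed by −0.08 in OCI-Ly1 and 0.19 in TMD8 at 500 nM, neither past the threshold. MAF1, a repressor of Pol III, rose in OCI-Ly1 from 118.0 ± 7.81 to 169.1 ± 5.89 CPM at 500 nM (log2 0.52, edgeR adjusted p = 6.6e-07). In TMD8 the MAF1 difference was 0.07 (edgeR adjusted p = 0.29), and −0.29 on the log2(TPM + 1) scale.

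The proteins of the 4 complexes were taken as those of RNase P, RNase MRP, the 7SK complex and the SRP with its receptor. The La and Ro genes SSB and TROVE2 were counted with them, and the set came to 28 genes, all tested. In OCI-Ly1 edgeR, DESeq2 and limma called 0 of them at 150 nM, with 3 at an unadjusted p under 0.05 in edgeR. Of all genes, edgeR called 0.748% higher and 0.141% lower there. At 500 nM in OCI-Ly1 5 rose and 7 fell, beside 27.7% and 25.9% of all genes. With library size alone or on log2(TPM + 1) the latter split was 6 against 3. In TMD8 2 rose and 14 fell at 150 nM, beside 19.2% and 25% of all genes. The count that fell was 8 without the third 150 nM library and 9 with library size alone. At 500 nM in TMD8 3 rose and 20 fell, beside 29.9% and 30.7%.

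Of the 11 protein genes listed for RNase P and RNase MRP, 9 fell and 1 rose in TMD8 at 500 nM, beside 30.7% of all genes called lower and 29.9% higher. Their median log2 difference was −0.40, against 0.04 over all tested genes. In OCI-Ly1 4 fell and 2 rose, beside 25.9% and 27.7%, with a median of −0.07 against −0.003. With library size alone or on log2(TPM + 1) 2 fell there. POP1, the largest protein of both enzymes, fell from 63.8 ± 1.81 CPM with DMSO to 33.9 ± 1.96 CPM at 500 nM in OCI-Ly1 (log2 −0.91, edgeR adjusted p = 1.3e-09). In TMD8 POP1 went from 40.1 ± 1.56 to 19.3 ± 1.53 CPM (log2 −1.04, edgeR adjusted p = 5.7e-09). RPP40, a further subunit, rose in OCI-Ly1 (log2 0.40) and fell in TMD8 (log2 −0.53), and its OCI-Ly1 call was lost without the first 500 nM library (edgeR adjusted p = 0.064). POP1 transcripts and the RNAs that the protein binds thus differed from DMSO in opposite directions in TMD8, where RPPH1 stood 0.77 and RMRP 0.94 higher on the log2 scale.

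SSB encodes the La protein, which binds the uridine end of new Pol III transcripts. It fell in OCI-Ly1 at 500 nM, from 223.1 ± 22.6 to 153.8 ± 2.88 CPM (log2 −0.54), and in TMD8 from 246.4 ± 16.3 to 145.7 ± 6.63 CPM (log2 −0.76). Among the 7 protein genes of the 7SK complex, HEXIM1 rose in TMD8, from 66.9 ± 5.72 CPM with DMSO to 112.8 ± 10.5 CPM at 150 nM and 151.1 ± 5.10 CPM at 500 nM (log2 0.76 and 1.17, edgeR adjusted p = 1.6e-07 and 1.1e-10). In OCI-Ly1 HEXIM1 differed by 0.21 at 500 nM (edgeR adjusted p = 0.098), and its paralogue HEXIM2 rose (log2 0.65). RN7SK, the RNA that these proteins bind, was not analysed here. Of the 8 SRP proteins and receptor subunits, whose RNA is RN7SL1, 1 rose and 7 fell in TMD8 at 500 nM, beside 29.9% of all genes called higher and 30.7% lower, and 1 rose and 1 fell in OCI-Ly1, beside 27.7% and 25.9%.

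**Figure D5:**
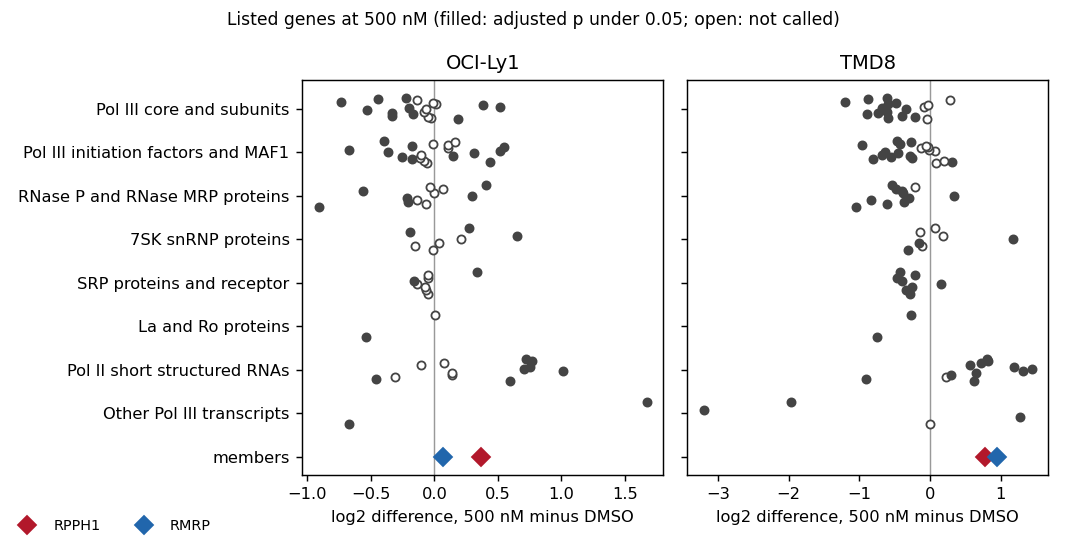
Log2 difference at 500 nM minus DMSO (x axis) of each tested gene of the listed groups (y axis) in each line, from the edgeR fit to estimated counts; filled circles had an adjusted p under 0.05, open circles did not, and the diamonds are RPPH1 (red) and RMRP (blue), which were not tested. The 2 lowest of the other Pol III transcripts in TMD8 are VTRNA1-2 and SNAR-G1, which reached the test only through their DMSO counts. In TMD8 the polymerase and RNase P protein genes lie mostly below 0 and the short RNAs made by RNA polymerase II mostly above it.

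Other short RNAs in the same tables give a comparison for abundance and length. Of 35 further Pol III transcripts listed, 19 had a row, and only 2 passed the filter in OCI-Ly1 and 4 in TMD8. Those tested in OCI-Ly1 were RNU6ATAC and BCYRN1, and TMD8 added VTRNA1-2 and SNAR-G1. RNU6ATAC, the U6atac RNA of the minor spliceosome, which has the same promoter type as RPPH1 and RMRP, rose at 500 nM in OCI-Ly1, from 1.77 ± 0.603 to 5.72 ± 1.43 CPM (log2 1.67, edgeR adjusted p = 4.5e-05). In TMD8 it rose from 2.11 ± 0.829 to 4.85 ± 0.647 CPM at 150 nM and 5.15 ± 0.741 CPM at 500 nM (log2 1.18 and 1.27). Its counts ran from 19 to 240 in a library, so RNU6ATAC is far less abundant than RPPH1.

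BCYRN1, a Pol III transcript related to Alu repeats, fell in OCI-Ly1 at 500 nM (log2 −0.67, edgeR adjusted p = 6.1e-04), and in TMD8 it stood at 7.93 ± 1.67 CPM with DMSO and 7.97 ± 0.854 CPM at 500 nM. VTRNA1-2 and SNAR-G1, named after their values were seen, had 16, 18 and 16 counts and 12, 16 and 14 counts in the DMSO libraries. At 500 nM they had 5, 4 and 0 counts and 1 count in each library. Only in the DMSO group did all 3 libraries reach the minimum of the filter, so these RNAs were tested because they were high there, and a lower call on them carries no weight. Near-identical copies of the SNAR genes make the SNAR-G1 counts uncertain.

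Short structured RNAs made by RNA polymerase II had 15 rows for 29 listed, and 12 passed the filter. In OCI-Ly1 at 150 nM edgeR called 0 of them, with 1 at an unadjusted p under 0.05, beside 0.748% of all genes called higher and 0.141% lower. That 0 depended on the processing. DESeq2 called 1 higher, as did library size alone, no filter on low counts and leaving out 150 nM replicate 1. At 500 nM in OCI-Ly1 6 rose and 1 fell, beside 27.7% and 25.9% of all genes. In TMD8 9 rose and 1 fell at 150 nM, beside 19.2% and 25%, and 10 rose and 1 fell at 500 nM, beside 29.9% and 30.7%. On log2(TPM + 1) 6 rose in TMD8 at 500 nM. Their median log2 difference was 0.37 in OCI-Ly1 at 500 nM, and 0.51 and 0.68 in TMD8, against −0.003, 0.01 and 0.04 over all tested genes. Those medians lie beside the RPPH1 differences of 0.36, 0.40 and 0.77 in the same comparisons, and whether short RNAs as a class were recovered differently between libraries was not tested.

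TERC, the RNA of telomerase, rose from 302.3 ± 30.0 to 498.6 ± 55.6 CPM in OCI-Ly1 at 500 nM (log2 0.72), and in TMD8 from 102.0 ± 6.89 to 178.9 ± 3.69 CPM (log2 0.81). SCARNA13, a small RNA of the Cajal body, rose from 103.8 ± 12.9 to 209.9 ± 26.3 CPM in OCI-Ly1 (log2 1.02) and in TMD8 from 51.1 ± 7.14 to 128.4 ± 19.8 CPM (log2 1.32). RNU12, the U12 RNA of the minor spliceosome, fell in TMD8 at 500 nM (log2 −0.90, edgeR adjusted p = 5.1e-05). Scaling the libraries without any of these short RNAs left the RPPH1 difference in TMD8 at 0.79 at 500 nM and that of RMRP at 0.95.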

How the data were processed

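RNA was measured by RNA sequencing in 18 libraries of 2 cell lines, 3 per group. The authors deposited estimated counts per gene and TPM for each line. kallisto 0.46.0, R 4.3.1, DESeq2 1.40.2 and the build hg19 are named per the submitters' processing notes, without their roles. The members and the gene lists were chosen with earlier results of these data known. Estimated counts were rounded, filtered with filterByExpr by group and scaled by TMM, and the 9 libraries of a line were fitted together with edgeR 4.0.16 in R 4.3.3. Benjamini-Hochberg adjustment of the quasi-likelihood p-values ran over all genes tested, with a threshold of 0.05. The SE is the log2 difference divided by the square root of F. TPM was tested as log2(TPM + 1) with limma 3.58.1, and DESeq2 1.42.0 was a further alternative. A single fit to all 18 libraries tested how the lines differed. Named genes were those with the largest rise and fall called at 500 nM in each protein list and line, HEXIM1, MAF1, BRF2, POLR3G, the neighbours, and the short RNAs tested in both lines; others are given by value where a list needed them. Fits were tested on simulated data. No 2 libraries of a group agreed within sampling noise (chi-square per degree of freedom 1.62 to 10.9 over 18 pairs). Promoter windows came from RefSeq and RNA sequences from GENCODE v29, not from the authors' index, so no position is given on hg19. RefSeq lists NME1 as a synonym of RMRP; that row is a different gene and was not used.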

Additional observations from a re-analysis of the deposited data

Results flagged for a closer look

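The responses of RPPH1 and RMRP were not tested between the lines, but those of the listed genes were, as the log2 response of OCI-Ly1 less the TMD8 response at the same dose (edgeR, all 18 libraries, Benjamini-Hochberg adjustment over all genes). Each gene below passed the threshold in that test, and no cause was tested. Line and medium changed together.

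Among the named protein genes of RNase P and RNase MRP, RPP40 differed most, and the subunits not named were not compared between the lines. RPP40 was named for its called rise at 500 nM in the same OCI-Ly1 libraries. That call was lost without the first 500 nM library. Every other gene in this paragraph also had the largest called rise or fall of its list at 500 nM in a line. The test between the lines used the same libraries, so this selection can favour passing, and no weight is put on it. At 500 nM the responses of RPP40 were 0.40 in OCI-Ly1 and −0.57 in TMD8, a difference of 0.97, and at 150 nM the difference was 0.68. For POP1 the difference was 0.44 at 150 nM and 0.16 at 500 nM, where it did not pass (edgeR adjusted p = 0.21). SSB, which encodes the La protein, differed by 0.48 at 150 nM and 0.25 at 500 nM. Among the 7SK proteins, HEXIM1 differed by −0.85 at 150 nM and −0.93 at 500 nM, HEXIM2 by 0.50 at 500 nM, and CCNT1 by 0.21 and 0.33. In the SRP group, SRPRB differed by 0.36 and 0.78, SRP72 by 0.37 and 0.27, SRP9 by 0.37 and 0.45, and SRP68 by −0.25 at 500 nM only.

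In the Pol III apparatus, SNAPC4 differed by 0.45 at 150 nM and 1.10 at 500 nM, with responses at 500 nM of 0.11 in OCI-Ly1 and −0.997 in TMD8. POLR3G differed by 0.55 and 0.51 at the 2 doses. At 500 nM the differences were 0.48 for MAF1, 0.64 for POLR3C, 0.61 for SNAPC2 and −0.62 for POU2F1. SNAPC4 was named for the largest called fall of its list at 500 nM in the same TMD8 libraries. POLR3C and SNAPC2 were named for the largest rises, and POU2F1 for the largest fall, in the same OCI-Ly1 libraries. POLR3G had the largest fall of its list in both lines. Such selection can favour passing, so no weight is put on it for these genes. Of the neighbours, PARP2 beside RPPH1 differed by 0.27 and 0.47, and CCNB1IP1 on its other side by 0.41 and 1.20.

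Of the 14 short RNAs tested in both lines, 7 passed at 150 nM, all with the lower response in OCI-Ly1, with differences of −1.17 for RNU6ATAC, −0.52 for TERC, −0.78 for SCARNA2, −0.45 for SCARNA7, −0.54 for SCARNA12, −0.71 for SCARNA13 and −1.02 for SCARNA17. The other 7 did not pass at 150 nM, among them RNU12, which differed the other way by 0.52 (edgeR adjusted p = 0.14). At 500 nM 6 of the 14 passed, with differences of −0.64 for BCYRN1, −0.40 for SCARNA2, −0.63 for SCARNA5, −0.61 for SCARNA6, −0.48 for SCARNA12 and −0.71 for SCARNA17, and 8 did not. The share of all genes that passed this test between the lines was not computed. Within the lines, edgeR called 0.748% of all genes higher and 0.141% lower in OCI-Ly1 at 150 nM, against 19.2% and 25% in TMD8. Nothing is therefore read from the number of short RNAs that passed, or from their direction, about short RNAs as a class.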

How the results depend on the processing

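RPPH1 kept the direction of its difference from DMSO under every alternative run in each line and dose. With single libraries left out, the log2 difference ran from −0.16 to −0.02 (OCI-Ly1, 150 nM), 0.31 to 0.41 (OCI-Ly1, 500 nM), 0.34 to 0.46 (TMD8, 150 nM) and 0.71 to 0.81 (TMD8, 500 nM). It moved by more than its replicate spread on log2(TPM + 1) and log2(TPM + 0.1) alike, to 0.49 in OCI-Ly1 at 500 nM, 0.25 in TMD8 at 150 nM and 0.40 in TMD8 at 500 nM. It also moved to 0.55 in OCI-Ly1 with spacer-like loci left out, and with library size alone to 0.48 and 0.87 in TMD8. The cause of these moves was not tested. For the differences of RMRP and those of RPPH1 between the doses, 15 values under the alternatives moved by more than the replicate spread and 113 did not. The count of called proteins of the 4 complexes in TMD8 at 150 nM ran from 9 to 16 with single libraries left out, and the totals of both protein lists, rises and falls together, otherwise stayed within 1.5 times in each line and dose. Split by direction they moved further: in OCI-Ly1 at 500 nM the falls of the Pol III apparatus went from 14 to 9 without DMSO replicate 2 or with library size alone and to 6 on log2(TPM + 1), and those of the proteins of the 4 complexes from 7 to 3 on both scales. At 500 nM in TMD8, log2(TPM + 1) and log2(TPM + 0.1) reversed MAF1 (−0.29 and −0.30), RPP21 (−0.054 and −0.059), SRP68 (−0.20 and −0.21), CCDC107 (−0.059 and −0.067), RNU4ATAC (−0.26 and −0.27) and SCARNA10 (−0.10 and −0.10). For named genes, 115 values fell short of the threshold under some alternative, 38 passed it anew and 2115 kept their side. The labels number replicates alike. Same-numbered libraries deviated together, with a correlation over 0.1, in 2 of 9 pairs in each line. Differently numbered libraries did so in 0 of 18 pairs in OCI-Ly1 and 1 of 18 in TMD8. These few pairs do not settle whether the numbers pair the samples. With a replicate block RPPH1 was −0.09, 0.37, 0.40 and 0.78 in the same order. Depth did not limit RPPH1 or RMRP, while most other Pol III transcripts fell under the filter.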
